A study of Mus musculus with 8 samples.

Results

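Interferons are secreted proteins that warn cells of virus infection. They act through cell surface receptors, JAK kinases and transcription factors that switch on a large common set of genes, among them antiviral effectors and the genes by which cells show peptides on MHC molecules to T cells. Embryonic stem (ES) cells are known for a weak interferon response and for little MHC class I on their surface, whereas fibroblasts, often used as feeder cells under ES cultures, respond strongly. The genes described here are a list of 34 interferon-induced and MHC genes, chosen by name. Of these, 30 were measured, as 30 of 8733 named genes tested. Each gene is represented by its brightest probe on average, among those that some group had on both of its arrays at a detection p-value under 0.05. The other 4 genes, Ifih1, Ifit1, Oas1a and Xaf1, had no named probe that passed and are not analysed here.

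Levels were measured in 4 groups of mouse ES cells of B6D2F1 hybrid mice, with 2 Illumina bead arrays in each group and 8 in all. The normal ES cells came from embryos. The parthenogenetic ES cells came from oocytes and so carry maternal genomes only. The remaining groups were genetically modified parthenogenetic ES cells, whose labels say that one overexpresses Igf2 (a growth factor gene, silent on the maternal allele in most tissues) and that the other has reduced H19 (a noncoding RNA gene beside Igf2, read from the maternal allele). How the cells were modified, whether each line was 1 clone and whether feeder cells were present is not given in the sources used here. The design text calls the replicates biological but names no separate cultures. The p-values therefore cover only the spread between these arrays, whose number limits the precision of every comparison. Median intensity per array was 172 to 197 units, and 47.1% to 49.5% of probes were detected.

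Igf2 itself did not stand higher in the line labelled for it. Its log2 level was 15.61 and 15.49 there, 15.58 and 15.62 on the parthenogenetic arrays, 14.98 and 14.94 with the H19 label and 15.62 and 13.63 in normal ES cells, near the upper end of the scale. No named probe for H19 was available here, so the groups are called Igf2-labelled and H19-labelled. The 2 normal arrays stood apart from each other, with a correlation of 0.961 across probes against 0.995 to 0.996 in the other pairs. All 4 groups share 1 estimate of each probe's error, so that gap widens the error of every comparison. Results of a fit of the 6 arrays without the normal cells are therefore given beside those of all 8.

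Markers of fibroblasts moved with the interferon and MHC genes. The mean log2 level of 27 measured fibroblast markers of 35 listed was 11.81 and 10.39 on normal replicates 1 and 2, 11.73 and 11.74 on the parthenogenetic arrays, 11.52 and 11.54 with the Igf2 label and 10.94 on both arrays with the H19 label. Their summed intensity was 189987 to 192846 units on the parthenogenetic arrays, 162348 to 178702 with the Igf2 label, 106136 to 117811 with the H19 label, and 215582 and 86111 on the normal arrays. The defining fibroblast genes Col1a1, Col1a2 and Thy1 were detected on all 8 arrays. Over all 30 interferon and MHC genes the mean was 10.76 and 10.02 in normal ES cells, 10.73 and 10.78 in parthenogenetic ES cells, 10.68 on both Igf2-labelled and 10.23 and 10.27 on the H19-labelled arrays. Both means were lowest on normal replicate 2 and next lowest on the H19-labelled arrays. Markers of ES cells, with 12 of 12 measured, had means between 12.06 and 12.41 and were highest on the H19-labelled arrays. In RNA from whole cultures, fewer cells of a type and less RNA per cell cannot be told apart, and the part of fibroblast RNA in the results that follow was not tested.

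**Figure D1:**
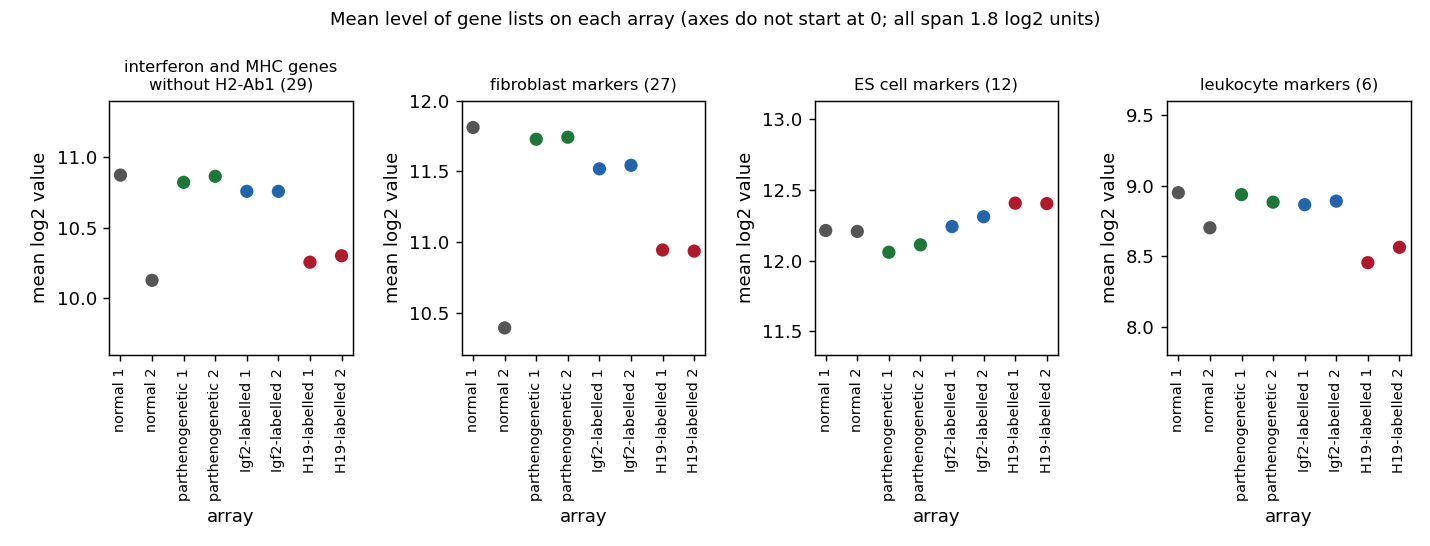
Mean normalized log2 level of 4 gene lists on each of the 8 arrays, 1 point per array, coloured by group. The axes do not start at 0, and every panel spans the same log2 range. The interferon and MHC genes without H2-Ab1 (10.13 on normal replicate 2, 10.26 and 10.30 on the H19-labelled arrays) and the fibroblast markers are lowest on the same 3 arrays.

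The DNA that interferon-activated factors are known to read was looked for in the RefSeq promoter windows (build GRCm38.p6, 250 bases before to 50 after each gene's start), which were at hand for 23 of the 30 genes. The interferon-stimulated response element (ISRE) was searched as GAAA and GAAA set apart by any 2 bases, and the gamma-activated site (GAS) as TTCNNNGAA, both on either strand. The ISRE letters were in 9 of the 23 windows (39.1%) and the GAS letters in 5 (21.7%). Over all 32851 windows the shares were 3.44% and 8.3%, and counted once per gene, as for these 23, they were 3.99% and 9.55% of 27025 genes. The stretches below are those of genes whose levels are described here array by array, written 5′ to 3′ in the direction of the gene with the matching letters in capitals. In Isg15 the capitals cover 3 overlapping ISRE matches, and Psmb8 and Irf1 show a GAS match. The ISRE and GAS letters overlap in Bst2 and Ifitm3, whose windows are not shown. All others here show the ISRE, on the gene's own strand in Isg15, B2m and Ifitm2 and on the opposite strand in Ifit3, Gbp2 and Rsad2.
Isg15, chr4:156200839-156200932, minus strand: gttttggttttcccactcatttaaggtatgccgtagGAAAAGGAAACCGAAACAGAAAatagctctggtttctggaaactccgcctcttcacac
Ifit3, chr19:34583337-34583452, plus strand: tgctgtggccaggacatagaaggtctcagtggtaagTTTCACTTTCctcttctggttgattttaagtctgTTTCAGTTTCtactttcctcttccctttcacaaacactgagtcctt
Gbp2, chr3:142620568-142620649, plus strand: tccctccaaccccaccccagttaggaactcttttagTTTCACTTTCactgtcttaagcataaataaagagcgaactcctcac
Rsad2, chr12:26456527-26456608, minus strand: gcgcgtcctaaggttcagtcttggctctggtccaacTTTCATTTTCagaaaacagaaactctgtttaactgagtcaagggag
B2m, chr2:122147512-122147593, plus strand: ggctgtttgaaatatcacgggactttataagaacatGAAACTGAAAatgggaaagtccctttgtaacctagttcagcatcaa
Ifitm2, chr7:140955962-140956043, minus strand: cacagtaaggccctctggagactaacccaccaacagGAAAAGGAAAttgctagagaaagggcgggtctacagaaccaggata
Psmb8, chr17:34198062-34198142, plus strand: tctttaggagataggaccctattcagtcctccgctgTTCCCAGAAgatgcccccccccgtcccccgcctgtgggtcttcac
Irf1, chr11:53769888-53769968, plus strand: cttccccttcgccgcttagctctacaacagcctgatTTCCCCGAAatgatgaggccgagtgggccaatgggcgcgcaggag
The 5 genes with ISRE letters shown here other than Ifitm2 were lower by 0.81 to 1.22 on the log2 scale on the H19-labelled arrays than in parthenogenetic ES cells, and Ifitm2 by 0.10. Of those shown, Gbp2, Rsad2 and Psmb8 were chosen after their values were seen. The genes with ISRE letters that are not shown, Bst2, Ifitm3 and Stat2, changed by -0.55, -0.48 and -0.20. Over the 9 genes with ISRE letters the median change in that comparison was -0.81 (from -1.22 to -0.10, all 9 lower). Over the 14 without them it was -0.58 (from -1.14 to 0.27, 13 lower), so the ranges overlapped. For the GAS letters the order was the other way. The median was -0.55 over the 5 genes with them (from -1.14 to -0.01) and -0.65 over the 18 without (from -1.22 to 0.27). No match says only that the letters are not in this window.

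The H19-labelled arrays were set against parthenogenetic ES cells to ask how that modified line differed from unmodified cells of the same origin, although the modification and other differences between the lines cannot be told apart. Most of the interferon and MHC genes were lower on the H19-labelled arrays than in parthenogenetic ES cells, while the MHC class II gene H2-Ab1 was higher. Of the 30 genes 27 were lower, against 47% of all probes tested, and the median change was -0.58 on the log2 scale, against 0.02 over all probes. Both H19-labelled arrays lay below both parthenogenetic arrays for 24 genes (32.7% of all probes) and above them for 2 (36.4% of all probes). With limma over all 8 arrays 1 gene rose and 2 fell, 3 of 30 against 4.35% of all probes (2.52% higher and 1.83% lower). An unadjusted p under 0.05 was found for 16, against 23% of all probes. In the fit of the 6 arrays 2 rose and 19 fell, 21 of 30 against 33.2% of all probes (16.1% higher and 17.1% lower). With 1 of the 8 arrays left out at a time, the median change over the 30 genes lay between -0.61 and -0.51. The fit of 6 was not repeated with 1 of its own arrays left out. All 27 fibroblast markers were lower in the same comparison, with a median change of -0.83.

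**Figure D2:**
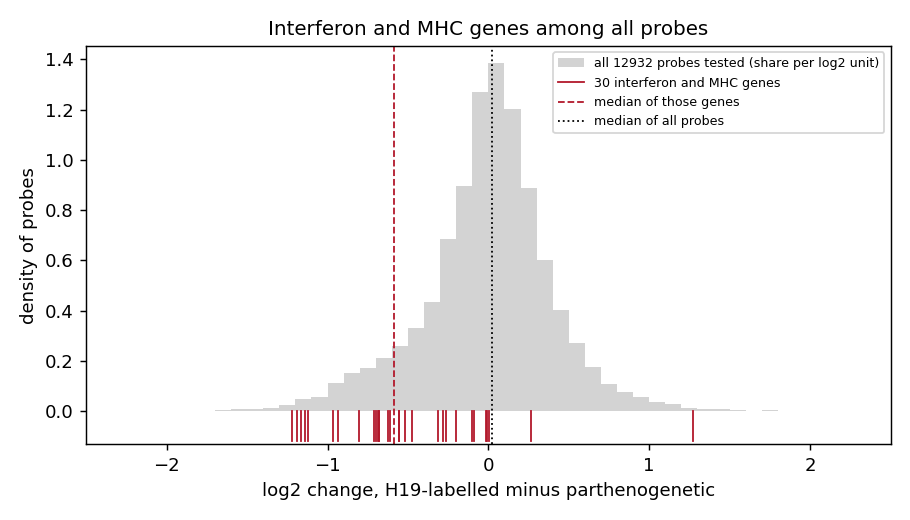
Distribution of the log2 change between the H19-labelled and parthenogenetic arrays over all 12932 probes tested (grey, share of probes per log2 unit), with each of the 30 interferon and MHC genes as a red line under it. The median of the genes (dashed) is at -0.58 and that of all probes (dotted) at 0.02, with H2-Ab1 alone at the right at 1.27.

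**Figure D3:**
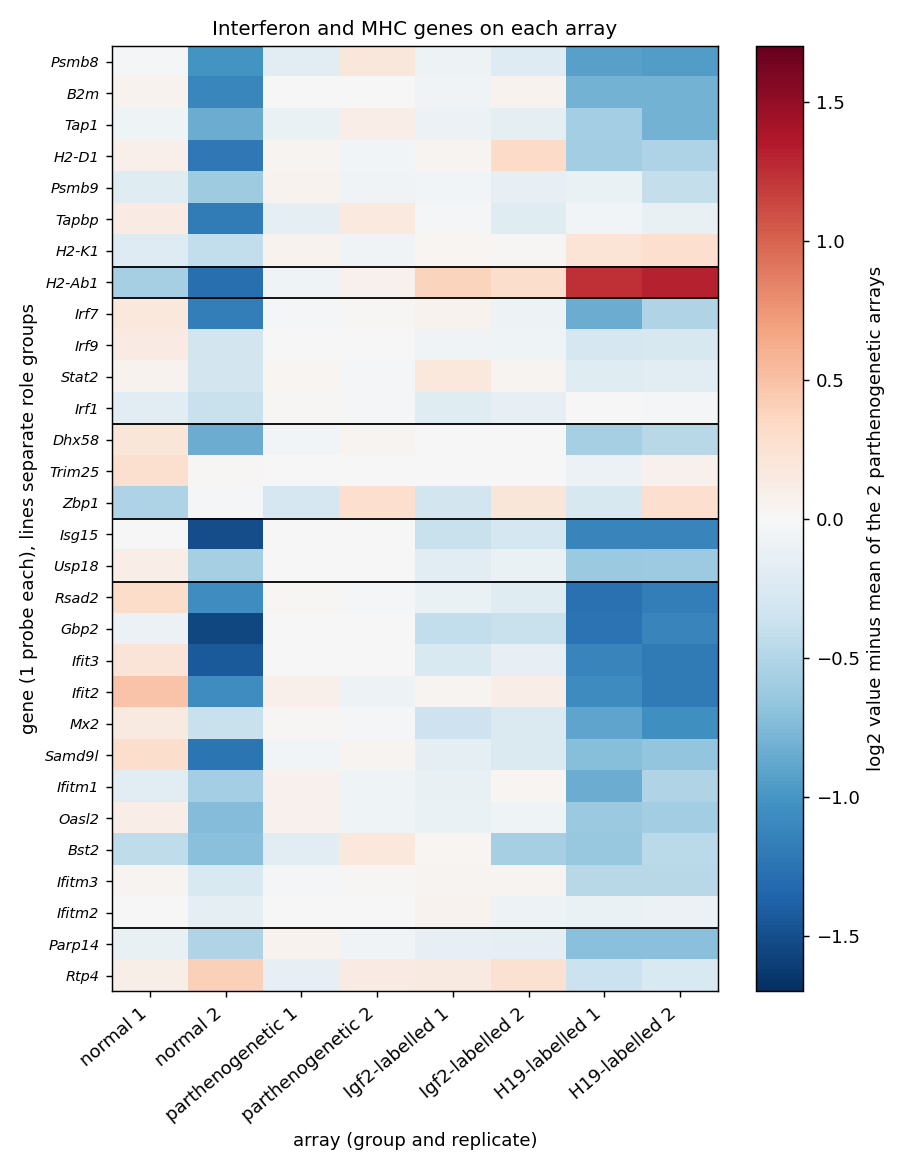
Level of each of the 30 genes on each array, as the log2 value minus the mean of the 2 parthenogenetic arrays. Rows are genes grouped by role, columns are arrays, and the colour scale runs from lower (blue) to higher (red). Normal replicate 2 and both H19-labelled arrays are blue for most genes, and the row of H2-Ab1 is red on the H19-labelled arrays.

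Antiviral effectors act directly on viruses or their replication, and all 11 measured were lower on both H19-labelled arrays than on both parthenogenetic arrays, with a median of -0.70. Mx2, a dynamin-like GTPase (probe ILMN_1239219, chromosome 16), stood at 8.60 and 8.55 in parthenogenetic ES cells, 7.67 and 7.53 with the H19 label, 8.22 and 8.32 with the Igf2 label and 8.73 and 8.20 in normal ES cells. Mx2 fell by 0.97 (SE 0.18, adjusted p = 0.0371 with limma), and its H19-labelled arrays were below all other 6. Rsad2, which codes for the enzyme viperin, was at 11.47 and 11.42 in parthenogenetic ES cells, 10.18 and 10.27 with the H19 label, 11.34 and 11.24 with the Igf2 label and 11.76 and 10.39 in normal ES cells. Its H19-labelled arrays did not overlap with the others, although normal replicate 2 came close. The change of -1.22 (SE 0.38), to 0.429 of the parthenogenetic level, did not pass over all 8 arrays (adjusted p = 0.124) and did in the fit of 6 (adjusted p = 5.08e-04).

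Ifit3, whose protein binds foreign RNA together with its relative IFIT1, was at 13.78 and 13.77 in parthenogenetic ES cells, 12.65 and 12.57 with the H19 label, 13.52 and 13.63 with the Igf2 label and 13.99 and 12.35 in normal ES cells. The gap between the normal arrays, 1.65, was larger than the change of -1.16 (SE 0.46). Gbp2, a guanylate-binding protein gene, was at 11.96 and 11.94 in parthenogenetic ES cells, 10.69 and 10.83 with the H19 label, 11.53 and 11.57 with the Igf2 label and 11.86 and 10.41 in normal ES cells. On this gene the Igf2-labelled arrays lay between the other 2 parthenogenetic groups. Neither change passed over all 8 arrays (Ifit3 adjusted p = 0.192, Gbp2 adjusted p = 0.146 at -1.19), and both did in the fit of 6 (adjusted p = 5.37e-04 and 5.31e-04). Ifit2, Samd9l, Ifitm1 and Oasl2 changed in the fit of 6 too, at -1.14, -0.70, -0.68 and -0.61, without passing over all 8 arrays. A second, dimmer Oasl2 probe changed by -0.86 and did pass over all 8 arrays (adjusted p = 0.0445). Ifit3 and the Oas genes have close relatives, and their probes may read more than 1 copy.

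The IFITM proteins sit in membranes and hinder virus entry, and they did not all move to the same extent. Ifitm3 was at 15.54 and 15.58 in parthenogenetic ES cells, 15.08 on both arrays with the H19 label, 15.60 and 15.61 with the Igf2 label and 15.61 and 15.31 in normal ES cells. The change of -0.48 (SE 0.13) had an adjusted p of 0.0881 over all 8 arrays and 0.00334 in the fit of 6. Ifitm2 was at 14.95 on both parthenogenetic arrays, 14.84 and 14.85 with the H19 label, 15.00 and 14.87 with the Igf2 label and 14.94 and 14.79 in normal ES cells. Its difference of -0.10 on the H19-labelled arrays (SE 0.11, adjusted p = 0.629) did not pass in either fit. Ifitm2 and Ifitm3, like Igf2, stood near the upper end of the scale, and whether that limited their changes was not tested. Bst2, which tethers budding virus to the cell, was at 12.65 and 13.01 in parthenogenetic ES cells, 12.18 and 12.37 with the H19 label, 12.87 and 12.26 with the Igf2 label and 12.39 and 12.12 in normal ES cells. Its change of -0.55 did not pass in either fit (adjusted p = 0.215 and 0.0983), and its Igf2-labelled arrays were 0.60 apart.

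The ISG15 system is a ubiquitin-like tag and its removal. Isg15, the tag, was at 13.13 and 13.12 in parthenogenetic ES cells, 12.00 and 12.01 with the H19 label, 12.75 and 12.82 with the Igf2 label and 13.12 and 11.62 in normal ES cells. Usp18, the protease that removes it and also dampens receptor signalling, was at 13.06 and 13.03 in parthenogenetic ES cells, 12.41 and 12.43 with the H19 label, 12.87 and 12.93 with the Igf2 label and 13.15 and 12.48 in normal ES cells. In both genes the Igf2-labelled arrays lay between the parthenogenetic and the H19-labelled arrays without overlap. The changes on the H19-labelled arrays, -1.12 (SE 0.42) and -0.63 (SE 0.21), had adjusted p of 0.171 and 0.137 over all 8 arrays and 4.81e-04 and 0.00141 in the fit of 6.

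Parp14, an ADP-ribosyltransferase gene induced by interferon (probe ILMN_2825803, chromosome 16), was at 11.26 and 11.15 in parthenogenetic ES cells, 10.49 on both arrays with the H19 label, 11.07 and 11.04 with the Igf2 label and 11.08 and 10.69 in normal ES cells. It fell by 0.71 (SE 0.15, adjusted p = 0.0489), just past the threshold of 0.05, and its H19-labelled arrays were below all others. Rtp4, a chaperone gene of receptor transport, was at 7.14 and 7.42 in parthenogenetic ES cells, 6.90 and 7.02 with the H19 label, 7.43 and 7.54 with the Igf2 label and 7.37 and 7.68 in normal ES cells. Its H19-labelled arrays were below all others, with a change of -0.31 (SE 0.15) against parthenogenetic ES cells that did not pass in either fit (adjusted p = 0.273 and 0.0759).

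The transcription factors of the response differed in how far they moved. Irf7, which drives a second wave of interferon genes, was at 9.54 and 9.57 in parthenogenetic ES cells, 8.71 and 9.04 with the H19 label, 9.61 and 9.46 with the Igf2 label and 9.73 and 8.38 in normal ES cells. Irf9, a DNA-binding factor of the response, was at 11.26 and 11.23 in parthenogenetic ES cells, 10.96 and 10.97 with the H19 label, 11.19 and 11.17 with the Igf2 label and 11.39 and 10.93 in normal ES cells. Neither change, -0.68 (SE 0.39) and -0.28 (SE 0.16), passed over all 8 arrays (adjusted p = 0.345 and 0.335), and both genes fell in the fit of 6 (adjusted p = 0.0077 and 0.023). Irf1, a factor of the interferon gamma response with GAS letters in its promoter window, was at 11.88 and 11.85 in parthenogenetic ES cells, 11.87 and 11.84 with the H19 label, 11.66 and 11.72 with the Igf2 label and 11.68 and 11.49 in normal ES cells. The H19-labelled and parthenogenetic arrays overlapped, with a change of -0.01 (SE 0.11, adjusted p = 0.975), and its 3 other probes changed by -0.07 to 0.02. Stat2, which acts together with IRF9, changed by -0.20 and did not pass in either fit (adjusted p = 0.448 and 0.099).

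Among genes of RNA sensing, Dhx58, a helicase related to RIG-I, was at 8.50 and 8.60 in parthenogenetic ES cells, 7.98 and 8.09 with the H19 label, 8.54 and 8.56 with the Igf2 label and 8.76 and 7.71 in normal ES cells. Its change of -0.52 (SE 0.30) had an adjusted p of 0.35 over all 8 arrays and 0.00426 in the fit of 6. Trim25, a ubiquitin ligase that assists RIG-I, was at 9.43 and 9.44 in parthenogenetic ES cells, 9.33 and 9.51 with the H19 label, 9.42 and 9.44 with the Igf2 label and 9.70 and 9.45 in normal ES cells. The H19-labelled arrays overlapped with the parthenogenetic ones (change -0.01, SE 0.13, adjusted p = 0.966). Zbp1, a sensor of Z-form nucleic acids, was at 7.50 and 8.07 in parthenogenetic ES cells, 7.51 and 8.08 with the H19 label, 7.48 and 7.99 with the Igf2 label and 7.26 and 7.77 in normal ES cells. In every group its array numbered 2 was higher than its array numbered 1 by more than the groups differed.

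**Figure D4:**
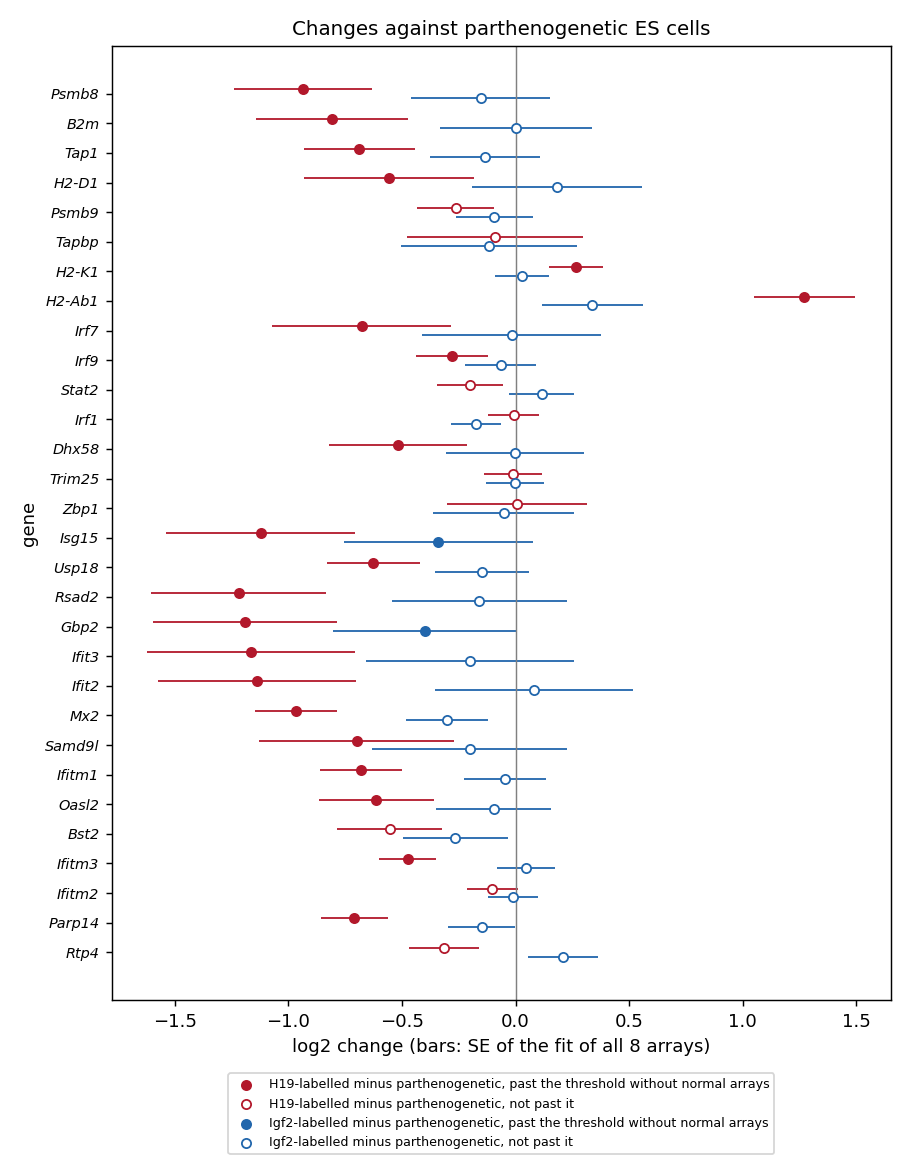
Log2 change of each gene against parthenogenetic ES cells on the H19-labelled (red) and the Igf2-labelled arrays (blue). Bars are standard errors of the fit of all 8 arrays, and filled points passed an adjusted p of 0.05 in the fit of the 6 arrays without the normal cells. On the H19-labelled arrays 19 genes are filled on the lower side and 2, H2-K1 and H2-Ab1, on the higher side, and on the Igf2-labelled arrays Isg15 and Gbp2 are filled. Both comparisons share the parthenogenetic arrays.

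MHC class I molecules show peptides from inside the cell, and most genes of that pathway were lower on the H19-labelled arrays. B2m, the light chain of every class I molecule, was at 15.38 on both parthenogenetic arrays, 14.58 on both arrays with the H19 label, 15.32 and 15.45 with the Igf2 label and 15.45 and 14.27 in normal ES cells. The H19-labelled arrays were below all others but normal replicate 2. B2m too stood near the upper end of the scale. The heavy chain gene H2-D1 was at 10.13 and 10.04 in parthenogenetic ES cells, 9.49 and 9.56 with the H19 label, 10.13 and 10.40 with the Igf2 label and 10.17 and 8.87 in normal ES cells. The other heavy chain gene, H2-K1, ran the opposite way, with 9.35 and 9.22 in parthenogenetic ES cells, 9.53 and 9.58 with the H19 label, 9.32 and 9.31 with the Igf2 label and 9.07 and 8.87 in normal ES cells.

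None of the 7 class I genes passed over all 8 arrays, where B2m changed by -0.81 (SE 0.33, adjusted p = 0.212), H2-D1 by -0.56 (SE 0.37, adjusted p = 0.414) and H2-K1 by 0.27 (SE 0.12, adjusted p = 0.236). In the fit of 6, B2m, H2-D1, Tap1 and Psmb8 fell and H2-K1 rose (adjusted p = 0.0437). Psmb8, a catalytic subunit of the immunoproteasome that cuts the peptides, was at 7.55 and 7.93 in parthenogenetic ES cells, 6.82 and 6.79 with the H19 label, 7.66 and 7.52 with the Igf2 label and 7.71 and 6.72 in normal ES cells, and was not detected on 1 normal array. Its partner subunit Psmb9 was at 9.54 and 9.43 in parthenogenetic ES cells, 9.37 and 9.08 with the H19 label, 9.44 and 9.35 with the Igf2 label and 9.28 and 8.88 in normal ES cells, with a change of -0.26 on the H19-labelled arrays that did not pass in either fit (adjusted p = 0.392 and 0.125). Tap1, a subunit of the peptide transporter, changed by -0.69 (SE 0.24, adjusted p = 0.157 over all 8 arrays and 0.00571 in the fit of 6), and Tapbp, which bridges the transporter and class I, by -0.09 with overlapping arrays. A second Tapbp probe differed from this brighter one. It was at 8.30 and 8.02 in parthenogenetic ES cells, 6.33 and 6.47 with the H19 label, 7.31 and 7.51 with the Igf2 label and 6.39 and 7.76 in normal ES cells. It was not detected on either H19-labelled array and was at least 2.94-fold lower there (adjusted p = 0.0603 over all 8 arrays and 5.57e-04 in the fit of 6). The H2 heavy chain genes are near-identical in parts and differ between mouse strains, and whether each probe reads 1 gene and both parental alleles of the hybrid equally was not tested.

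MHC class II molecules, made mostly by professional antigen-presenting cells, show peptides taken up from outside. H2-Ab1, the beta chain of the class II molecule I-A (probe ILMN_2607675, chromosome 17), was at 8.07 and 8.21 in parthenogenetic ES cells, 9.38 and 9.45 with the H19 label, 8.53 and 8.44 with the Igf2 label and 7.58 and 6.86 in normal ES cells. On this probe the groups did not overlap and ran in the order normal, parthenogenetic, Igf2-labelled and H19-labelled. H2-Ab1 rose by 1.27 (SE 0.22, adjusted p = 0.0327), a 2.41-fold level. Its 3 other probes were at 7.70 and 7.93, 7.37 and 7.06, and 7.10 and 7.34 in parthenogenetic ES cells, and at 8.84 and 8.94, 8.51 and 8.39, and 8.62 and 8.54 with the H19 label. All 3 were higher, by 1.08, 1.23 and 1.36, and the latter 2 passed (adjusted p = 0.136, 0.0154 and 0.0305).

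Of the class II genes in the pathway list, H2-Eb1, Cd74 and H2-DMa were higher with H2-Ab1. The listed genes H2-Aa, H2-DMb1 and Ciita had no named probe that passed, so the class II set was measured only in part. H2-Eb1, the beta chain of the class II molecule I-E, was at 7.91 and 7.82 in parthenogenetic ES cells, 9.56 and 9.69 with the H19 label, 8.90 and 8.76 with the Igf2 label and 8.29 and 8.94 in normal ES cells. It rose by 1.76 on the H19-labelled arrays (SE 0.21, adjusted p = 0.0113). Unlike H2-Ab1, its normal arrays lay above the parthenogenetic ones. Whether the H2-Ab1 and H2-Eb1 probes read both parental alleles of the hybrid equally, and whether the lines carry the same alleles, was not tested. The invariant chain gene Cd74 was at 6.50 and 6.75, with 1 array detected, in parthenogenetic ES cells and at 7.89 and 7.64, both detected, on the H19-labelled arrays. Its change of 1.14 (SE 0.43) did not pass over all 8 arrays (adjusted p = 0.176) and did in the fit of 6 (adjusted p = 0.00212), and its normal arrays were at 6.15 and 7.63. H2-DMa, which helps load class II peptides, changed by 0.43 (adjusted p = 0.264 and 0.0132).

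Leukocytes are the cells that usually carry class II. Of 15 listed leukocyte markers 6 were measured, and 4 of them were lower on the H19-labelled arrays. Their mean was 8.94 and 8.88 on the parthenogenetic arrays and 8.45 and 8.56 with the H19 label, and their summed intensity was 15729 to 16370 units and 17976 to 19062 units. The lysozyme genes Lyz1 and Lyz2 were lower on both H19-labelled arrays. Fcer1g, a receptor chain of myeloid cells, was not detected on the H19-labelled arrays and was at least 1.28-fold lower there (adjusted p = 0.023). Laptm5 and Cd3e were the 2 that were higher, and the defining genes Ptprc, Cd68, Csf1r and Itgam had no named probe that passed.

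**Figure D5:**
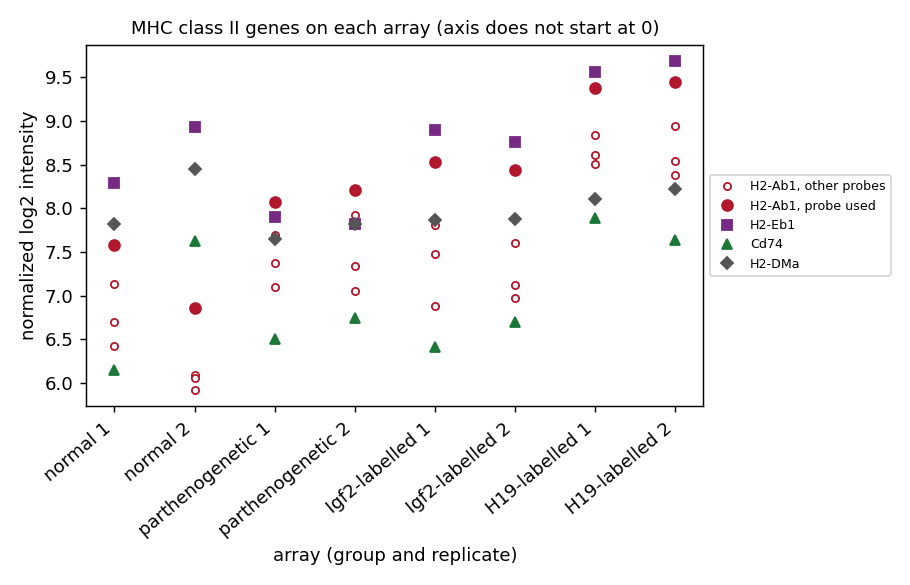
Normalized log2 level of MHC class II genes on each array, 1 marker per probe, with an axis that does not start at 0. Each marker is read along its own probe, since levels of different probes cannot be compared. The 4 probes of H2-Ab1 (red) and the probe of H2-Eb1 (purple) are highest on the H19-labelled arrays, where H2-Eb1 is at 9.56 and 9.69.

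Genes of the pathway outside the 30 were read from 4 further lists in the same comparison. Of 13 measured receptors and signalling genes 5 were higher and 8 lower. With limma over all 8 arrays 0 passed (4.35% of all probes did), and 2 had an unadjusted p under 0.05 (23% of all probes did). The brightest, the phosphatase gene Ptpn11 and the transcription factor gene Stat3, changed by -0.33 and -0.09 (adjusted p = 0.245 and 0.78). In the fit of 6 arrays 3 rose and 4 fell, where 33.2% of all probes passed (16.1% higher and 17.1% lower). The 2 chains of the interferon gamma receptor went opposite ways there. Ifngr1 was at 9.26 on both parthenogenetic arrays and 8.68 and 8.49 with the H19 label, and Ifngr2 was at 10.72 and 10.70 and at 11.44 on both. Neither passed over all 8 arrays (adjusted p = 0.29 and 0.3), and both did in the fit of 6 (adjusted p = 0.00516 and 0.00116). These were chosen after their values were seen.

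Of 10 measured nucleic acid sensing genes 8 were lower and 2 higher, with a median of -0.35. None passed with limma over all 8 arrays (4.35% of all probes did), and 4 had an unadjusted p under 0.05 (23% of all probes did). Tbk1, the kinase that activates IRF3, was at 11.70 and 11.69 on the parthenogenetic arrays and 11.27 and 11.14 with the H19 label, and its change of -0.49 just missed the threshold (adjusted p = 0.051). Eif2ak2, the RNA-activated kinase PKR, changed by -0.46 (adjusted p = 0.286). In the fit of 6 arrays 7 fell and 1 rose, where 17.1% of all probes fell and 16.1% rose. The riser, the nucleotide hydrolase gene Samhd1, was at 9.27 and 9.36 on the parthenogenetic arrays and 9.91 and 9.99 with the H19 label.

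Of 28 further interferon-induced genes 21 were lower and 7 higher, with a median of -0.32. None passed with limma over all 8 arrays (4.35% of all probes did), with 8 at an unadjusted p under 0.05 (23% of all probes). In the fit of 6 arrays 14 fell and 2 rose, where 17.1% of all probes fell and 16.1% rose. Irgm1, a GTPase, and Pml, of nuclear bodies, were the brightest and changed by 0.05 and 0.06 (adjusted p = 0.812 and 0.796). Ifi47, another GTPase, was at 9.59 and 9.37 in parthenogenetic ES cells, 8.11 and 8.22 with the H19 label, 9.02 and 9.03 with the Igf2 label and 9.76 and 7.54 in normal ES cells. Its change of -1.32 (SE 0.61) passed in the fit of 6 only (adjusted p = 0.254 and 5.70e-04), and it was chosen after its values were seen.

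Of 18 antigen presentation genes outside the 30, 8 were higher and 10 lower, with a median of -0.09. H2-Eb1 was the 1 that passed over all 8 arrays (4.35% of all probes did). In the fit of 6 arrays 4 rose and 6 fell, where 16.1% of all probes rose and 17.1% fell. The risers were H2-Eb1, Cd74, H2-DMa and Rfxap, a subunit of a factor that binds promoters of MHC genes. Those that fell were Tap2, Psmb10, H2-T23, H2-M3, H2-Q7 and Nlrc5, the activator of class I genes, which was detected on both parthenogenetic arrays and on neither H19-labelled array and was at least 1.13-fold lower (adjusted p = 0.16 over all 8 arrays and 0.00124 in the fit of 6). All 6 belong to the class I route.

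On the Igf2-labelled arrays the interferon and MHC genes lay close to the parthenogenetic level. Of the 30 genes 22 were lower and 8 higher, against 52.5% of all probes lower, with a median of -0.08 against -0.01 over all probes. None passed with limma over all 8 arrays (0.541% of all probes did, 0.271% in each direction), 0 had an unadjusted p under 0.05 (11.1% of all probes did), and the changes ran from -0.40 to 0.34. Both Igf2-labelled arrays lay below both parthenogenetic arrays for 11 genes (29.2% of all probes) and above them for 4 (26% of all probes). In the fit of 6 arrays, where 9.7% of all probes passed (5.44% higher and 4.25% lower), Isg15 and Gbp2 fell (changes of -0.34 and -0.40, adjusted p = 0.0346 and 0.0294). Mx2 changed by -0.30 (adjusted p = 0.665 and 0.0801), and B2m by 0.00 (SE 0.33). H2-Ab1 changed by 0.34 and did not pass (adjusted p = 0.713 and 0.0592), and 2 of its 3 other probes were lower. H2-Eb1 changed by 0.96 and passed in the fit of 6 only (adjusted p = 0.124 and 0.00368). Of the 27 fibroblast markers 25 were lower here, with a median of -0.22.

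The H19-labelled arrays also differed from the Igf2-labelled arrays, the other modified line. This comparison shares the H19-labelled arrays with the one above, so the values are given side by side. Of the 30 genes 25 were lower, against 45% of all probes, with a median of -0.52 against 0.03 over all probes. With limma over all 8 arrays 0 passed (0.201% of all probes did, 0.0851% higher and 0.116% lower), while 10 had an unadjusted p under 0.05, against 13.9% of all probes. The H19-labelled arrays lay below both Igf2-labelled arrays for 22 genes (28.4% of all probes) and above them for 3 (34.9% of all probes). In the fit of 6 arrays 20 fell and 1 rose, 21 of 30 against 20.6% of all probes (8.61% higher and 12% lower). The largest falls were those of Ifit2 at -1.22, Rsad2 at -1.06 and Ifit3 at -0.96, which were -1.14, -1.22 and -1.16 against parthenogenetic ES cells. Stat2 and Rtp4 fell in the fit of 6 here (adjusted p = 0.0364 and 0.0229) and not against parthenogenetic ES cells, which does not show that the 2 comparisons differ. All 27 fibroblast markers were lower here too, with a median of -0.62, and 24 of them fell in the fit of 6. H2-Ab1 changed by 0.93 (SE 0.22, adjusted p = 0.191 over all 8 arrays and 0.00202 in the fit of 6).

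Parthenogenetic ES cells had higher means than normal ES cells for 28 of the 30 genes, but the result turned on 1 normal array. Of all probes 51.7% were lower in parthenogenetic ES cells. The median change over the 30 genes was 0.35, against -0.01 over all probes. With limma over all 8 arrays 0 passed (0.108% of all probes did, 0.0232% higher and 0.0851% lower), while 5 had an unadjusted p under 0.05, against 11% of all probes. Both parthenogenetic arrays lay above both normal arrays for 10 genes (17.7% of all probes) and below them for 1, Trim25 (18.2% of all probes). Within the normal group 28 genes were higher on replicate 1 than on replicate 2, against 46.1% of all probes. The gap was 0.5 or more for 17 genes (16.5% of all probes) and 1 or more for 11 (5.88% of all probes), with a median of 0.70 over the 30 genes and -0.05 over all probes. In the other groups the 2 arrays differed by a median of 0.07 to 0.10 over the 30 genes.

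Without normal replicate 1, 24 genes rose, among 40.2% of all probes called, and the median change was 0.72. Without normal replicate 2 none passed, among 0.874% called, and the median was -0.06. All 27 fibroblast markers were higher in parthenogenetic than in normal ES cells, with a median of 0.65, and none passed. On normal replicate 2 fibroblast markers were lowest of all arrays and markers of primitive endoderm, with 5 of 10 measured, averaged 9.47, against 7.95 to 8.06 on the other arrays. The largest gaps within the normal group were those of Ifit3 (1.65), Ifit2 (9.75 and 8.19), Samd9l (12.08 and 10.54) and Isg15 (13.12 and 11.62). Ifitm2 (14.94 and 14.79), Irf1 (11.68 and 11.49) and H2-K1 (9.07 and 8.87) differed little, and Zbp1 and Rtp4 were higher on replicate 2.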

How the data were processed

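Per the labels, total RNA of 8 samples was made into biotin-labelled cRNA for Illumina arrays. The probe intensity values that the authors deposited had not been normalized between arrays, and each came with a detection p-value. They also deposited a log2 table of the 12690 probes detected on 4 or more arrays, with a median of 9.55 on every array. Neither scanner software nor normalization tool is given in the sources used here.

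The neqc function of limma 3.58.1 (R 4.3.3) corrected the background with an offset of 16, quantile normalized the arrays and gave log2 values. The 12932 probes detected (p-value under 0.05) on both arrays of some group were tested. Group means were fitted with lmFit and eBayes over all 8 arrays (4 residual and 2.81 prior degrees of freedom), and in the alternative over 6 (3 residual and 3.29 prior). Printed SEs are from the fit of 8. Each of 4 comparisons was adjusted by Benjamini-Hochberg over all probes, with a threshold of 0.05. Every adjusted p in the text is limma's. The fit was also run on simulated data, where a probe had the same spread in every group. The normal arrays here do not share that spread, so the run cannot say how their gap affects the calls. The platform annotation supplied gene names for 11960 probes, 11953 of them matched to RefSeq gene identifiers (GRCm38.p6), and 997 tested probes had no name.

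The genes, role groups and lists were chosen with earlier results of these data known. Values on every array were given by rule for genes past the threshold and the 3 brightest of each role group. Gbp2, Rsad2, Bst2, Psmb8 and H2-K1 were added after their values were seen. For other lists, up to 6 genes past the threshold or otherwise the 2 brightest were named. Alternatives were fits of fewer arrays, other background corrections, other detection filters, the deposited log2 values, a trended robust prior, another probe per gene and the replicate number as a block.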

Additional observations from a re-analysis of the deposited data

How the results depend on the processing

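The calls depended more on which arrays were fitted than on the processing. For the H19-labelled against parthenogenetic arrays, the 3 genes past the threshold (H2-Ab1, Mx2 and Parp14) were also the 3 called without background correction, with an offset of 50, with a detection p under 0.01, with detection on all 8 arrays and in the authors' log2 table. A trended robust prior added Ifitm3, and the lowest probe per gene added Oasl2. Without a detection filter 0 passed (adjusted p of 0.0503 to 0.0597). In fits of only the 2 groups compared, 21 genes passed against parthenogenetic ES cells and 20 for H19-labelled against Igf2-labelled, and 1, Gbp2, for Igf2-labelled against parthenogenetic, among 31.2%, 17.6% and 6.76% of all probes. Without both normal arrays these counts were 21, 21 and 2, among 33.2%, 20.6% and 9.7% of all probes. With the lowest probe per gene, 1 passed for H19-labelled against Igf2-labelled, H2-Ab1.

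Leaving out 1 array at a time, the counts ran from 0 to 21 for H19-labelled against parthenogenetic, 0 to 21 against Igf2-labelled, 0 to 2 for Igf2-labelled against parthenogenetic and 0 to 24 for parthenogenetic against normal. The highest counts came without a normal array, for the last comparison without normal replicate 1. In the comparisons that do not use the normal group, a lone normal array adds nothing to the error. Leaving out 1 normal array there gave the fit of 6 arrays again, so it is no separate support. Fits without 1 of the 6 other arrays kept both normal arrays. The calls of H2-Ab1, Mx2 and Parp14 for H19-labelled against parthenogenetic were lost in each of those fits, so only effect sizes are given. Whichever array was left out, H2-Ab1, Mx2 and Parp14 changed by 1.20 to 1.34, -1.04 to -0.90 and -0.77 to -0.65 (H19-labelled against parthenogenetic). Where a group is left with 1 array, that array is taken to have the spread of the others.

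The median change on the H19-labelled arrays lay between -0.66 and -0.51 over all alternatives. With the replicate number as a block, 0 genes passed for H19-labelled against parthenogenetic (adjusted p of 0.0524 to 0.0643), and 314 probes instead of 563. The replicate differences of the groups correlated at -0.03 to 0.17, not over 0.1 in every pair of groups, and the labels tie the numbers to no shared culture or batch, so the arrays were not taken as paired.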
